A study of Mus musculus with 6 samples.

Results

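The nuclear transcripts that encode the proteins of the mitochondrial ribosome were examined in RNA of crude mouse heart mitochondria. Members were the protein-coding genes whose symbol starts with Mrpl or Mrps followed by a digit. Of the 78 such genes in the annotation, 77 were in the count files, among 39177 identifiers in all: 48 with a large subunit symbol (Mrpl) and 29 with a small subunit symbol (Mrps). The remaining gene, Mrpl33, was not analysed here. Mrps36 matches the rule and is counted among the small subunit, although it is not regarded as a ribosome subunit. RNA sequencing libraries came from the hearts of 3 control and 3 knockout mice, all C57BL/6N and aged 3 to 4 weeks, with each library taken as 1 mouse. Controls carried loxP sites around exon 3 of Polrmt and no cre (title L/L, genotype label Polrmt +/+). Knockouts carried the same alleles with cre driven by the muscle creatine kinase promoter (title L/L, cre, genotype label Polrmt -/-), a promoter that acts in muscle cells, so the other cells of the heart keep the gene. Polrmt encodes the RNA polymerase of mitochondria, and the comparison asks how transcripts differ in hearts that lack it.

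The mitochondrial ribosome translates the few mRNAs that mitochondrial DNA (mtDNA) encodes, all of them for subunits of oxidative phosphorylation. Its RNAs, mt-Rnr1 of the small subunit and mt-Rnr2 of the large subunit, are transcribed by Polrmt inside the organelle, whereas every protein is encoded in the nucleus, made in the cytosol and imported. Some of its proteins have bacterial counterparts and others are specific to mitochondria. In heart, which depends on oxidative phosphorylation, inherited defects of several of these proteins cause cardiomyopathy.

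Gene-assigned counts per library were between 1062030 and 3234729, and after leaving out mtDNA and the 5 nuclear loci with the most counts, between 76949 and 164004 remained. The members together held between 171 and 485 counts per library, and 1 count was worth between 0.381 and 0.838 CPM (counts per 1000000 of the library size scaled by TMM, which sets the bulk of tested transcripts to no change). Sums over the 3 knockouts would hold 1.57 counts for each control count if nothing differed. Polrmt itself had 3, 2 and 1 counts in controls and 2, 5 and 1 in knockouts, and a gene-level count does not resolve the deleted exon, so the labels were not checked by it. All 10 cardiomyocyte markers were detected, with a summed level between 5880 and 6608 CPM in controls and between 4520 and 5161 CPM in knockouts. The intervals given below cover counting error alone.

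At least 1 count was found for 76 of the 77 members, and Mrpl53 had 0 counts in every library. At least 20 counts over the 6 libraries were found for 41 members (29 large, 12 small), and 43 members were detected in every library. Mrpl12 held the most counts, 76 over the 6 libraries, followed by the small subunit gene Mrps23 with 64 and the large subunit gene Mrpl42 with 62. The second best counted small subunit gene was Mrps9 with 40 counts. Per kilobase of annotated exon, the highest control level was that of Mrpl12 at 3.95 CPM per kb, followed by Mrpl55 at 3.49, Mrps21 at 2.73 and Mrps23 at 2.59, and the median over the 77 members was 0.604 CPM per kb. Levels per length in knockouts followed those of controls across members (Pearson r 0.78 on the log2 scale over the 77 genes, with 0.5 added, which share libraries and gene lengths and are not replicates). Lengths count the exons of every annotated isoform, from 607 bases in Mrpl34 to 8631 in Mrps35, so genes with long alternative exons read low.

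**Figure D1:**
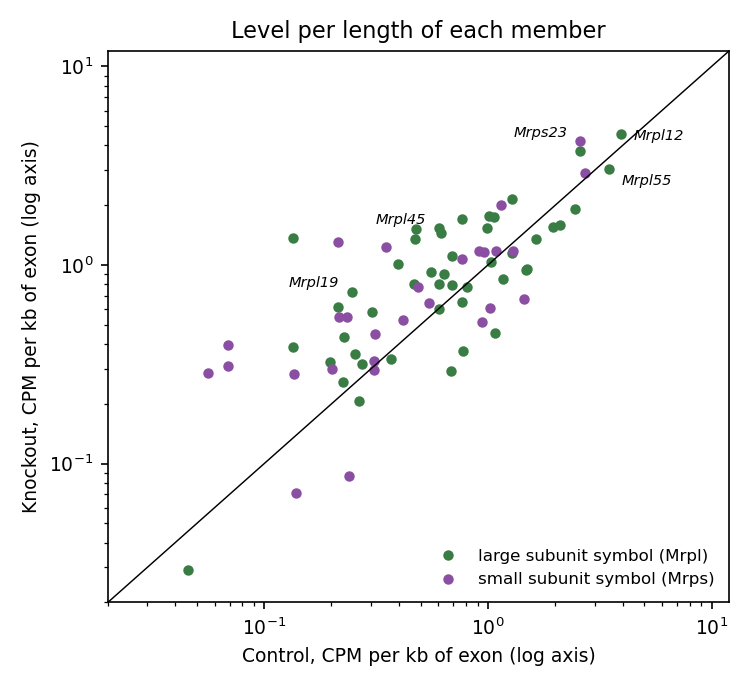
Level of each member per kilobase of annotated exon in controls (x axis, log) and knockouts (y axis, log), from counts summed over 3 libraries each; each point is 1 of 75 genes with counts in both groups, and the line marks equal levels. Mrpl12 is highest in both groups, at 3.95 and 4.57 CPM per kb.

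Starts of members were often shared with another gene. Within 500 bases of the annotated start, 25 of 77 members (32.5%) had the start of a protein-coding gene on the opposite strand, against 1958 of 22028 protein-coding genes (8.9%). Mrpl46 and Mrps11, 1 gene of each subunit, stand head to head, and Mrps12 stands 172 bases from Sars2, the mitochondrial seryl-tRNA synthetase. Exons of 32 members overlap exons of another gene, on the same strand for 7 of them. The sources used here do not give the strand setting of the counting, so reads of such overlapping genes cannot be told apart.

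The 250 bases before the start were read from RefSeq for 68 members and searched on both strands for motifs of factors known to act on genes of mitochondrial function. The NRF1 motif, here GCGC and TGCGC with any 1 base between them, was found in 10 of 68 members (14.7%) and in 4.2% of all 27025 genes in the table. CCGGAAG, the core bound by GABPA (NRF2) and other ETS factors, was found in 18 members (26.5%) and in 7.8% of genes. AAGATGGC (YY1) was found in 4 members (5.9%, against 1.8%), CAAGGTCA (estrogen-related receptors) in 2 (2.9%, against 1.5%) and TGATGNAA, the core of the element bound by ATF4, in 0 (against 3.9%). Median GC content was 58.6% in promoters of members and 52.4% in all promoters, and a match describes letters and is no evidence of binding. NRF1 or GABPA motifs were found in 27 members (39.7%, against 11.3% of genes). Promoters are printed for the best counted members, Mrpl12, Mrps23, Mrpl42 and Mrpl3, and for Mrpl39 and Mrpl45, tested members of the tunnel exit. Motif matches are in capitals (NRF1 in Mrpl12, Mrpl39 and Mrpl45, GABPA in Mrpl3; GRCm38.p6), and Mrps23 and Mrpl42 hold none.

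Mrpl12 (chr11:120484387-120484636, plus strand): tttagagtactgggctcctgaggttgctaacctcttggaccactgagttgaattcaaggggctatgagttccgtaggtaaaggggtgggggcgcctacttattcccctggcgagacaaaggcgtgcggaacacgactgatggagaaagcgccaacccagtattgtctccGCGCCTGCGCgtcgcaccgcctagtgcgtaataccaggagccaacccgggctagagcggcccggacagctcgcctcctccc
Mrps23 (chr11:88204138-88204387, plus strand): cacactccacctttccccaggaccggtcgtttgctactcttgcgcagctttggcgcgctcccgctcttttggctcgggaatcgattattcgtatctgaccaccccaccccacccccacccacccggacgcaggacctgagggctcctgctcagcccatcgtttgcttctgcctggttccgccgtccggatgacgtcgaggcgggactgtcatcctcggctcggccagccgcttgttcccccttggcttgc
Mrpl42 (chr10:95501950-95502199, minus strand): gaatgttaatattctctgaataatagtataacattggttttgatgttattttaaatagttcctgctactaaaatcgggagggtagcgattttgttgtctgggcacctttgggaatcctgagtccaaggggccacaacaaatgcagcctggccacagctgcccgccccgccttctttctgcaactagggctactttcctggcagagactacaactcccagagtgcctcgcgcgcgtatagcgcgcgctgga
Mrpl3 (chr9:105053018-105053267, plus strand): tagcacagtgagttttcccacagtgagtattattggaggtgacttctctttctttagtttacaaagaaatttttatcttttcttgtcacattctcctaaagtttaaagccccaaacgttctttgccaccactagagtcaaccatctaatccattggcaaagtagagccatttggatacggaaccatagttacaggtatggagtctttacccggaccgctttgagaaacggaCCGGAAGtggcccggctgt
Mrpl39 (chr16:84735245-84735494, minus strand): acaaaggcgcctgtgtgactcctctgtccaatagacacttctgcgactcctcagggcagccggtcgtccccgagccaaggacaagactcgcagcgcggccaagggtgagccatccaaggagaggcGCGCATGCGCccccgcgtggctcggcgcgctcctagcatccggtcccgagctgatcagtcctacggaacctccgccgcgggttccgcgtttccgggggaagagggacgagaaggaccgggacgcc
Mrpl45 (chr11:97315466-97315715, plus strand): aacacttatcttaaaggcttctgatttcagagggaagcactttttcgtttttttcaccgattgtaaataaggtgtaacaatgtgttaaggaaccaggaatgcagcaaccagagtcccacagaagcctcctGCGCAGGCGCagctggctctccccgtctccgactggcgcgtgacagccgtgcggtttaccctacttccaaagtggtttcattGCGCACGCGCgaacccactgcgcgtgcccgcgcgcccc

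Summed over its members, each subunit was counted somewhat more in knockouts relative to other nuclear transcripts. The large subunit had 113, 137 and 163 counts in controls 1 to 3 and 215, 257 and 328 in knockouts 1 to 3. Scaled, these were 94.7, 83.9 and 99.6 CPM in controls, against 104, 111 and 125.0 CPM in knockouts. The groups did not overlap, but the intervals of control 3 (84.9 to 116) and knockout 1 (90.7 to 119) did. The ratio of knockout to control sums was 1.24 (95% Poisson interval 1.096 to 1.395), with means of 92.7 ± 8.04 and 114 ± 10.6 CPM (SD, n = 3 each).

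The small subunit had 58, 52 and 80 counts in controls and 122, 117 and 157 in knockouts, or 48.6, 31.8 and 48.9 CPM against 59.1, 50.7 and 59.8 CPM. These groups did not overlap either, and control 2 lay well below the other controls. The ratio was 1.33 (95% Poisson interval 1.12 to 1.59), with means of 43.1 ± 9.76 and 56.6 ± 5.06 CPM (SD, n = 3 each). Over all members the ratio was 1.27 (1.15 to 1.40), from 136 ± 17.6 to 170 ± 12.8 CPM (SD, n = 3 each), and the knockouts lay between 162 and 185 CPM, above the controls at 116 to 148 CPM. No p is given for these sums, since the members were chosen with results of the data known.

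**Figure D2:**
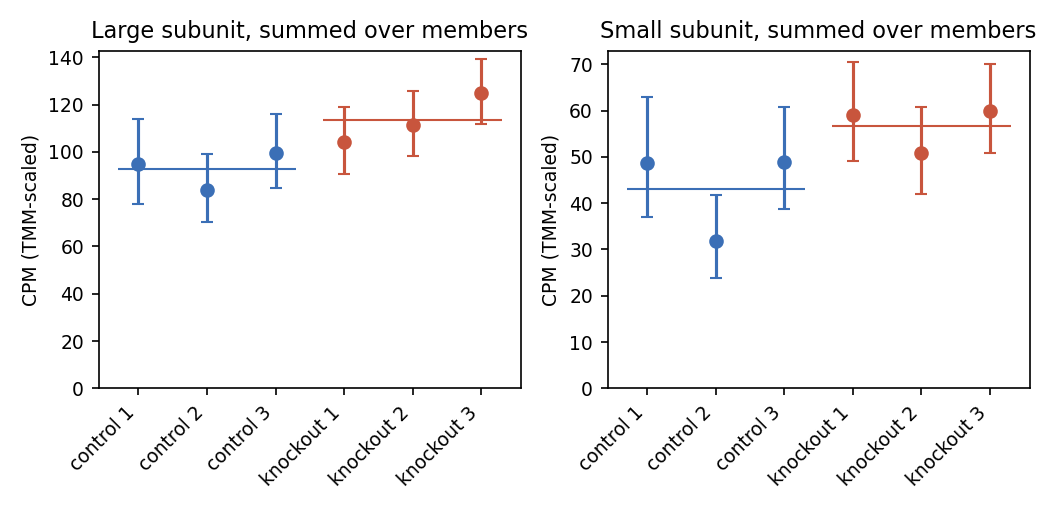
Summed level of large subunit members (left) and small subunit members (right) in each library, in CPM; points are libraries, bars their 95% Poisson intervals and horizontal lines the group means of 3. The knockouts, at 104 to 125.0 CPM (large) and 50.7 to 59.8 CPM (small), lie above the controls.

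The same order was seen without TMM. As a share of nuclear counts outside the 5 loci, members made up 0.222%, 0.176% and 0.222% in controls and 0.267%, 0.260% and 0.296% in knockouts. These are shares of RNA in crude mitochondria, not in whole heart, and how much nuclear RNA came with the mitochondria was not measured. mtDNA took 79.5% to 83.5% of all counts in controls and 21.1% to 25.8% in knockouts. Less RNA per cell and fewer cells of a type cannot be told apart in such bulk shares. The balance of the subunits did not separate the groups. The large subunit took 66.1%, 72.5% and 67.1% of member counts in controls and 63.8%, 68.7% and 67.6% in knockouts. The lowest share, in knockout 1, had an exact 95% binomial interval from 58.4% to 68.9%, and the highest, in control 2, one from 65.5% to 78.7%.

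No single member passed the test. The low-count filter left 13 members (11 large, 2 small), and edgeR's quasi-likelihood test called 0 higher and 0 lower at an adjusted p under 0.05. Among all 3363 tested genes, 6.66% were called higher and 6.78% lower. At an unadjusted p under 0.05 there were 2 members, Mrpl19 and Mrpl45, both higher, against 25.1% of all tested genes. DESeq2 called 0 of the 13, with 0 at an unadjusted p under 0.05, and of all 3363 genes it called 89 higher and 73 lower. The filter asked for 15 to 16 counts in a control library and 6 in a knockout library, since it used whole library sizes. All 13 members reached this in the 3 knockouts and 0 in the 3 controls, so they were admitted through their knockout counts, and the directions of the 13 are not support for a difference. Of the other 64 members, 28 had at least 20 counts and are described by their counts, and 36 had fewer.

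Mrpl19, a large subunit protein with a bacterial homologue, (chr6:81957851-81965958 in GRCm38), was counted 0, 2 and 4 times in controls, and 8, 9 and 11 times in knockouts. In CPM it stood at 0, 1.22 and 2.44 against 3.88, 3.90 and 4.19, so the groups did not overlap and the knockouts were closely alike. This log2 difference, 1.53 ± 0.53 SE, missed the threshold with an adjusted p of 0.0517 in edgeR. The alternatives moved this adjusted p between 6.06e-11, with no scaling beyond the library size, and 0.394, with DESeq2. It was 0.0373 with nuclear counts as the library size, and the log2 fold change was 2.40 without control 3 and 1.097 without control 1. Exons of Mrpl19 overlap those of Gcfc2 on the opposite strand.

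Mrpl45, which ties the ribosome to the inner membrane at the exit of the peptide tunnel (chr11:97315716-97329920), had 1, 3 and 3 counts in controls and 10, 11 and 7 in knockouts. At 0.838 to 1.84 CPM the controls lay below the knockouts at 2.67 to 4.84 CPM. In edgeR this was a log2 difference of 1.32 ± 0.51 SE with an adjusted p of 0.0916. Mrpl39, also near the tunnel exit, had 4, 4 and 4 counts in controls and 6, 13 and 12 in knockouts, and its groups overlapped in CPM (0.71 ± 0.45 SE on the log2 scale, adjusted p = 0.355 in edgeR). Neither difference passed the test.

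Mrpl12 is the stalk protein that recruits translation factors to the large subunit and has been reported to bind Polrmt as well (chr11:120484613-120489065). It had 9, 7 and 11 counts in controls and 17, 9 and 23 in knockouts, or 6.18 ± 1.69 against 6.97 ± 2.67 CPM (SD, n = 3 each). Knockout 2, at 3.90 CPM, was the lowest of the 6 libraries. The fitted log2 difference, 0.21 ± 0.37 SE, was smaller than its error (adjusted p = 0.799 in edgeR). It turned to -0.017 without control 2 and to -0.009 without knockout 3. The other stalk proteins were Mrpl53, with 0 counts, Mrpl10, with 6, 3 and 7 counts against 3, 9 and 7, and Mrpl11, with 3, 5 and 2 against 4, 7 and 7. The groups overlapped in CPM for Mrpl10 and Mrpl11, and the stalk members together had a ratio of 1.04 (95% Poisson interval 0.727 to 1.49).

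Among proteins of the large subunit body, Mrpl3, which lies close to the catalytic centre, had 6, 5 and 7 counts in controls and 8, 13 and 7 in knockouts. Its log2 fold change was -0.01 ± 0.42 SE. Mrpl4, which lines the peptide tunnel, had 6, 3 and 6 counts against 7 in each knockout (-0.16 ± 0.45 SE). These genes gave no detectable difference at this depth, and the Poisson interval of Mrpl3 (0.530 to 1.91) bounds its ratio under 2-fold in each direction.

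Mrpl42, a protein with no bacterial homologue, had 7, 10 and 10 counts in controls and 9, 10 and 16 in knockouts. In CPM the controls were tightly grouped between 5.87 and 6.12, and the knockouts stood at 4.36, 4.34 and 6.10, and the fitted log2 difference was -0.27 ± 0.38 SE with an adjusted p of 0.737 in edgeR. Mrpl51, likewise specific to mitochondria, had 8, 6 and 7 counts against 7, 7 and 10, with the lowest fitted value of the tested members, -0.45 ± 0.42 SE. The remaining tested genes of the large subunit were Mrpl9 (0.61 ± 0.46 SE), Mrpl15 (-0.13 ± 0.47 SE) and Mrpl55 (-0.19 ± 0.44 SE), and all 3 had groups that overlapped. Mrpl15 had 0 counts in control 1 and 9 in control 2, a wider range than that of the knockouts at 6 to 7.

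For the small subunit, Mrps23 (chr11:88204388-88211507) had 6, 7 and 5 counts in controls and 13, 16 and 17 in knockouts. Its knockouts at 6.30 to 6.94 CPM lay above its controls at 3.05 to 5.03 CPM. On the log2 scale the gap was 0.70 ± 0.40 SE, and with an adjusted p of 0.276 in edgeR it did not pass the test. Mrps9, a homologue of a bacterial small subunit protein, had 4, 6 and 4 counts against 7, 10 and 9 (0.24 ± 0.44 SE), with overlapping groups.

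**Figure D3:**
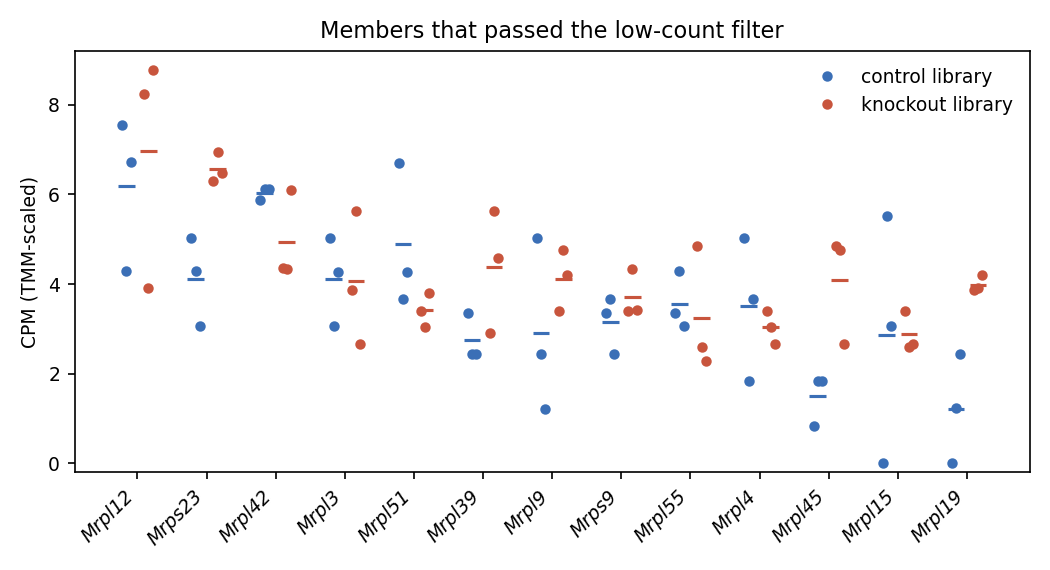
Level in CPM of the 13 members that passed the low-count filter; each point is 1 library (3 per group) and each short line a group mean. The groups are separate for Mrps23, Mrpl45 and Mrpl19 and overlap for the others, and no member passed edgeR's test.

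The next members by count were described without a test. Mrps35 had 4, 2 and 6 counts in controls and 10, 3 and 14 in knockouts (ratio 1.44, with a Poisson interval that held 1). Mrpl37 had 2, 8 and 2 against 4, 11 and 10 (1.33, 0.644 to 2.90), or log2 1.34 without control 2. Mrpl38, a protein of the central protuberance, had 3, 1 and 3 against 2, 13 and 11 (2.37, 1.002 to 6.47), with knockout 1 among the controls. In each of these the SD of at least 1 group exceeded the difference between the group means.

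Mrpl30 had 5, 2 and 3 counts against 5, 6 and 14 (ratio 1.60), and Mrpl1, which forms the mobile stalk beside the tRNA exit site, 1, 3 and 5 against 5, 7 and 12 (1.70). Mrpl18, a protein of the central protuberance, had 1, 2 and 5 against 9, 5 and 7 (1.68, or log2 1.5 without control 3), and Mrpl16 had 4, 2 and 3 against 7, 5 and 8 (1.42). Every one of these intervals held 1. Mrpl48 had 3, 5 and 2 against 3, 2 and 13, where knockout 3 decides the ratio of 1.15 (log2 -0.97 without it). Below 1 lay Mrpl50, with 4, 4 and 6 against 4, 6 and 4 (0.638), and Mrpl28, with 3, 5 and 4 against 4, 3 and 8 (0.798), again with intervals that held 1.

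Of the small subunit genes in this class, Mrps2 had 0, 4 and 6 counts against 10, 4 and 8 (ratio 1.40, or log2 1.15 without control 3), Mrps7 had 3, 4 and 5 against 7, 6 and 4 (0.904) and Mrps34 had 2, 3 and 5 against 6, 4 and 7 (1.08). Mrps31 had the lowest ratio of the members with at least 20 counts, 0.596 (0.266 to 1.32), from 9, 3 and 3 counts in controls and 4, 7 and 3 in knockouts, and control 1 decides it (log2 0.13 without it). Mrps18a, which sits in the large subunit in published structures, had 3, 1 and 4 against 7, 8 and 5 (1.60, 0.673 to 4.19). Mrps18b, named after its value was seen, had the highest ratio of the class, 6.06 (1.46 to 53.7), from 2 control counts, both in control 2, and 6, 5 and 8 in knockouts.

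**Figure D4:**
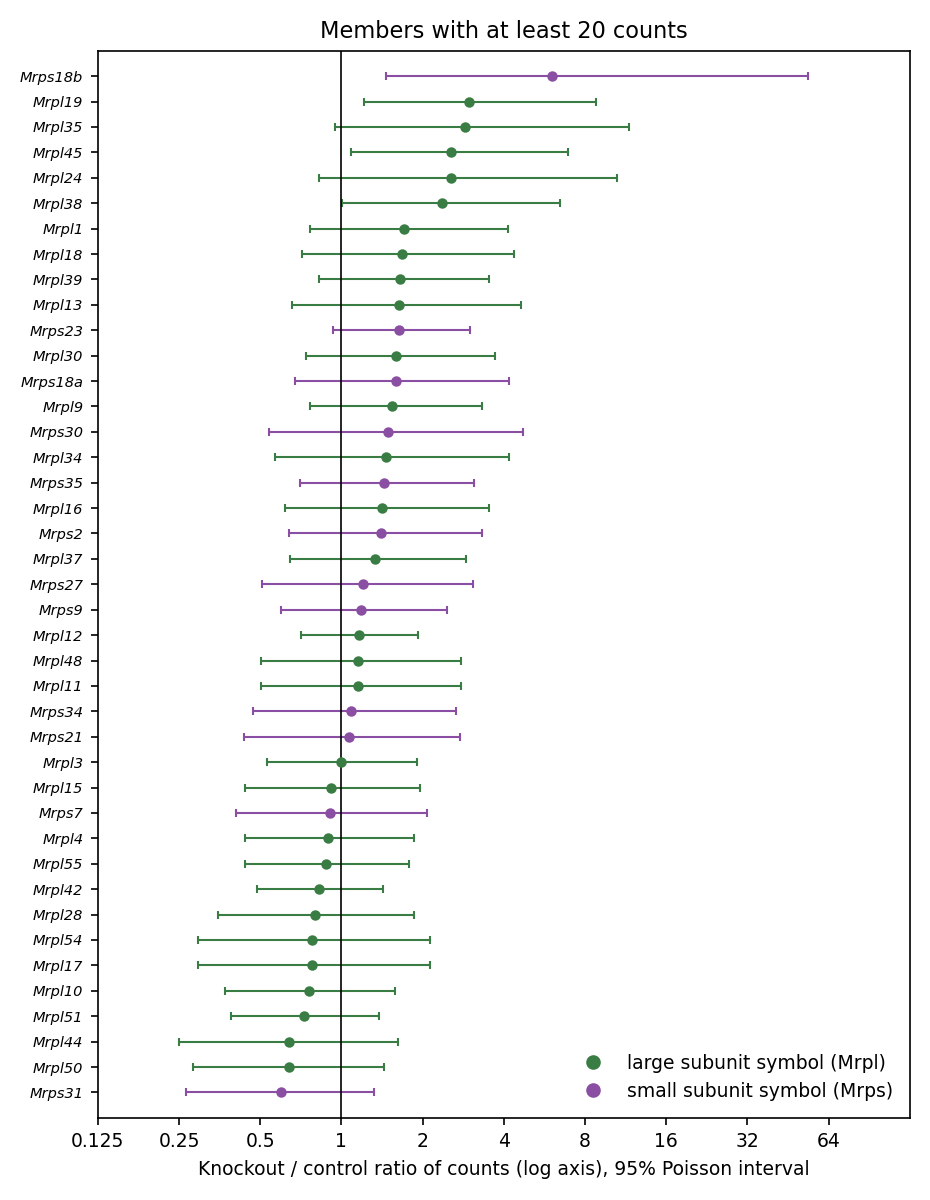
Ratio of knockout to control counts (x axis, log) for the 41 members with at least 20 counts, scaled by effective library size, with 95% Poisson intervals that cover counting error alone; colours give the subunit by symbol. Intervals of 4 genes lie above 1, those of 0 genes lie below 1, and 29 hold 2.

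Over the 41 members with at least 20 counts, the ratio was above 1 in 27 and below 1 in 14, with a median of 1.21. Over all 5854 genes with at least 20 counts, a set with no upper limit on counts, the median was 0.957. The Poisson interval lay above 1 for 4 members (Mrpl45, Mrpl19, Mrpl38 and Mrps18b) and below 1 for 0, where 8.35% of all such genes lay above and 11.8% below. All 3 knockouts lay above all 3 controls for 5 members (Mrps23, Mrpl45, Mrpl19, Mrpl35 and Mrps18b) and below them for 0, where all genes gave 10.3% above and 13.4% below. The shares above 1 are thus near those of these 5854 genes, and the absence of members below is from a list of 41. Members held at most 76 counts, and the 5854 genes were not matched to them by depth, on which such shares depend. For 29 of the 41 the interval held a 2-fold higher level and for 15 a level of 0.5, so single members are poorly resolved.

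The 36 members under 20 counts included 24 with a ratio above 1, 11 with one below and Mrpl53. Their intervals lay above 1 for Mrpl20, Mrps17 and Mrps6, with no share over all genes under 20 counts computed for comparison. These 3, and Mrpl35 above, are named here after their values were seen. Mrps6 had 0 counts in every control and 1, 2 and 6 in knockouts. With 3 counts over the controls taken as the floor, the ratio was 1.91. The 95% Poisson interval from the counts themselves had a lower end of 1.26. Exons of Mrps6 overlap those of Slc5a3 on the same strand. Mrpl20 had 1 control count against 2, 4 and 10 in knockouts (ratio 10.2, 95% Poisson interval 1.59 to 428), and Mrps17 had 2 against 3, 4 and 7 (4.47, 1.03 to 40.5). Summed, these 36 genes had a ratio of 1.42 (1.16 to 1.76), with groups that overlapped. Without the low-count filter, 0 of the 76 members with counts were called. Among the 14236 genes so fitted, 196 were called higher and 117 lower, so few calls are the rule in that fit.

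Grouped by origin, the 45 proteins with bacterial homologues had 331 counts in controls and 683 in knockouts, from 74.2 ± 9.71 to 97.3 ± 8.17 CPM (SD, n = 3 each), a ratio of 1.32 (95% Poisson interval 1.15 to 1.51). The 31 specific to mitochondria had 270 and 502 counts, from 61.2 ± 8.88 to 71.2 ± 7.80 CPM, a ratio of 1.19 (1.02 to 1.38), and their groups overlapped. Mrps18a and Mrps18b were placed in this class, although Mrps18c, which shares their S18 name, was placed among the homologues. The intervals of both classes overlap, and the difference between them was not tested. The 8 proteins around the tunnel exit had a ratio of 1.36 (0.971 to 1.93).

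Set against the rRNAs they assemble with, the protein transcripts were far more numerous in knockouts. Both rRNAs fell: mt-Rnr2 was 12.9-fold lower and mt-Rnr1 17.4-fold lower (adjusted p = 1.19e-33 and 9.24e-40 in edgeR). Counts of large subunit members per 100000 counts of mt-Rnr2 were 7.96, 9.13 and 13.0 in controls, against 143, 163 and 152 in knockouts. Counts of small subunit members per 100000 counts of mt-Rnr1 were 8.43, 7.004 and 12.7 in controls against 219.8, 202 and 204 in knockouts. These ratios need no scaling between libraries, and the means differed 15.2-fold and 22.2-fold, while the summed protein transcripts themselves differed 1.24-fold and 1.33-fold.

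Proteins of the cytosolic ribosome, gave a higher summed ratio. Over 77 transcripts, 76 of them with counts, it was 1.58 (95% Poisson interval 1.48 to 1.69), and 7 of 38 tested were called higher and 0 lower, among them Rplp1, Rpl4 and Rplp0. DESeq2 called 2 of them, and over all tested genes 6.66% were higher in edgeR. Mitoribosomal counts per 100 cytosolic ribosomal protein counts were 52.1, 42.0 and 48.6 in controls, against 35.6, 38.0 and 39.3 in knockouts, so all 3 knockouts lay below the controls. In knockouts the mitochondrial set stood higher against all nuclear transcripts and lower against the cytosolic set.

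Other parts of the mitochondrial translation system gave 0 calls in edgeR, from few tested genes. Over all tested genes, 6.66% were called higher and 6.78% lower. Of the 5 ribosomal proteins with other symbols, Ptcd3 was tested (0.29 ± 0.35 SE on the log2 scale), and the 5 together had a ratio of 1.24 (0.913 to 1.69). The 15 translation factors, 14 of them with counts, had a ratio of 1.29 (1.08 to 1.55), with overlapping groups and 0 of 6 tested called. Mrrf, which releases ribosomes after termination, had 1, 1 and 4 counts against 6, 8 and 11 (1.37 ± 0.53 SE, adjusted p = 0.104 in edgeR). Gfm1, the elongation factor that moves the ribosome along, had 19, 18 and 27 against 49, 37 and 49 (0.43 ± 0.23 SE). The other tested genes of this list were Taco1 (0.66 ± 0.45 SE), Gfm2 (0.51 ± 0.40 SE), Tufm (0.31 ± 0.40 SE) and Oxa1l (0.002 ± 0.36 SE). Oxa1l is an insertase of the inner membrane and was counted in this list. All but Gfm1 were admitted through their knockout counts, as the tested members were. The 28 genes listed as assembly and rRNA modification factors had a ratio of 1.16 (0.979 to 1.38) with 0 of 2 tested called. Lrpprc is listed there, although it acts on the stability of mitochondrial mRNAs. It held 34, 27 and 41 of the list's 59, 57 and 95 counts in controls. In knockouts it held 56, 54 and 71 of 108, 120 and 156. The 19 mitochondrial aminoacyl-tRNA synthetases listed had a ratio of 1.01 (0.819 to 1.24) with 0 of 2 tested called. Lars2, another such synthetase, is not in that list, and its locus is among the 5 left out of nuclear counts.

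**Figure D5:**
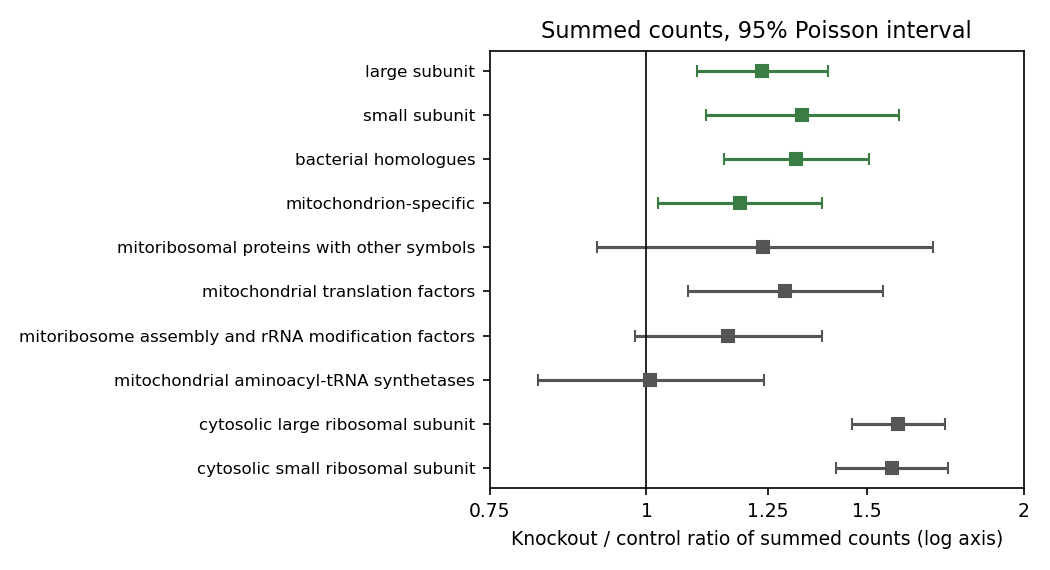
Ratio of knockout to control counts (x axis, log) summed over each gene set, scaled by effective library size; squares are ratios and bars 95% Poisson intervals for counting error, with members in green and other lists in grey. Both subunits lie near 1.3 (1.24 and 1.33), below both cytosolic subunits (1.59 and 1.57).

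Marker transcripts of several other cell types differed between the groups in this RNA of crude mitochondria, which does not measure the number of cells. Summed markers of fibroblasts were between 697 and 753 CPM in controls and between 592 and 667 in knockouts, those of endothelium between 136 and 155 against 97.9 to 121, and those of smooth muscle and pericytes between 119 and 139 against 65.9 to 100.2. Macrophage and leukocyte markers were between 44.7 and 67.0 CPM against 15.5 to 26.7, and erythrocyte markers overlapped at 56.3 to 125 against 58.5 to 109. Every marker of these lists was detected. Of those tested, 2 of 8 fibroblast, 1 of 7 endothelial, 2 of 4 smooth muscle and 3 of 3 macrophage markers were called lower, while 5 of 10 cardiomyocyte markers were lower and 1 was higher. The part of these differences in the ratios of the members was not tested.

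The authors' deposited table lists 43 of the members among 6319 genes, and none of the 43 has a false discovery rate under 0.05, where 195 genes are higher and 141 lower in that table. The smallest value in the authors' deposited table is that of Mrpl45, a log2 fold change of 1.46 with a false discovery rate of 0.108. Of the 43 in the authors' deposited table, 28 lie above 0, with a median of 0.28, against -0.01 over all its genes. The direction of that table was read from its mtDNA genes, since its header does not name the groups. Mrpl19, which has no count in control 1, is not among them.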

How the data were processed

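RNA from crude heart mitochondria of 3 control and 3 knockout mice was isolated with the miRNeasy kit and sequenced from TruSeq libraries on a MiSeq, per the labels' protocols. Tools named in the submitters' processing notes are edgeR 3.11.2, R 3.2.0, HISAT 0.1.6 and featureCounts 1.3.5-p4, and build GRCm38. The strand setting, the handling of multiply aligned reads and the release of the annotation are not stated there. Deposited values are unnormalised counts for each gene and library, and a table of the authors' comparison, per the file headers, with false discovery rates, p-values, a score (likelihood ratio) and log2 fold changes. A second set of deposited values, normalised by a method not given, was not used.

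Symbols, positions and exon lengths came from GENCODE M21 (GRCm38). The groups were tested in edgeR 4.0.16 under R 4.3.3 (quasi-likelihood, robust, no covariate) on genes kept by filterByExpr, set to a minimum count of 10 and a total of 15 on whole library sizes, with TMM scaling and Benjamini-Hochberg adjustment over all tested genes. Tests were 2-sided, and the procedure was checked on simulated data. SE is that implied by the F statistic. Ratios of summed counts have exact conditional Poisson intervals. DESeq2 1.42.0 was an alternative. Motifs were searched in RefSeq promoters (GRCm38.p6).

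The members and lists were chosen with earlier results of these data known. Named genes are the members that passed the filter and the others with the most counts, up to 30 with at least 20 counts, the 2 best counted of each subunit, members at 0, and up to 4 called genes of each other list. The tested genes of the translation factor list, Ptcd3 and Lrpprc are named as well, although none of them was called. No 2 libraries were copies of each other (chi-square within groups per degree of freedom 1.19 to 1.43).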

Additional observations from a re-analysis of the deposited data

How the results depend on the processing

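Counts of members called higher were 0 with DESeq2's size factors, DESeq2's test, no low-count filter, a filter on nuclear counts, genes counted in all 6 libraries and the replicate block. There were 13 with no scaling beyond the library size, which shifts the median of all genes to 2.06 on the log2 scale, and 1, Mrpl19, with nuclear counts outside mtDNA and the 5 loci as the library size. Leaving out 1 library gave 0 or 1, the 1 being Mrpl20 without knockout 1 (3.32 on the log2 scale, edgeR adjusted p = 0.0217), where 32 members were tested. Members called lower were 0 throughout. All genes called numbered 452, 3343 with no scaling, 162 with DESeq2, 429 with the replicate block and 279 to 352 with 1 library left out.

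The summed log2 ratio of the large subunit was 0.31, from 0.22 to 0.37 with 1 library left out, that of the small subunit 0.41 (0.22 to 0.54) and that of all members 0.34 (0.23 to 0.42). With no scaling they were 2.39, 2.49 and 2.42. The large to small log2 ratio of -0.11 went from -0.17 to 0.01 with 1 library left out. Each sum moved by less than the spread between replicates with DESeq2 size factors, nuclear library sizes, means of log2 values, without the best counted member of each subunit, and with subunits by their place in structures, which leaves out Mrps36 (small 0.36, all 0.33). The same held for members with no exon overlap and members that did not pass the filter, 2 alternatives chosen after seeing the data.

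With no scaling the sign turned for Mrpl42 (1.78), Mrpl3 (2.04), Mrpl51 (1.60), Mrpl55 (1.86), Mrpl4 (1.88) and Mrpl15 (1.91). Mrpl3 also turned with nuclear library sizes (0.074), no filter (0.12), the filter on nuclear counts (0.087), genes counted in all libraries (0.11) and, of the libraries left out, without knockout 1 (0.008) or knockout 3 (0.26), its range being -0.34 to 0.26. Mrpl15 turned with no filter (0.0066). Without 1 library Mrpl12 lay between -0.017 and 0.47 (also -0.009) and Mrpl55 between -0.55 and 0.046. Same-numbered control and knockout libraries did not deviate together (correlations -0.019, 0.015 and 0.016). With few libraries per group that differ little beyond counting error, this could not exclude a pairing.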
